A study of Mus musculus with 6 samples.

Results

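The genes described here encode the machinery that copies nuclear DNA. A list of 48 genes was matched by symbol, through the GENCODE M21 annotation of GRCm38, to rows of a table of 54532 Ensembl genes. The rule that picks them uses no measured value, but the list was drawn up with earlier results of these data known, so its counts are not independent evidence. They fall into 7 subgroups by role, namely licensing of origins (11 genes), helicase activation (6), the sliding clamp and its loaders (7), polymerases and primase (9), single-strand binding and Okazaki fragments (6), chromatin assembly on new DNA (5) and fork protection (4). Poly-A RNA of cardiomyocyte (CM) nuclei was counted in hearts of young mice in which GFP or a mutant of YAP, the transcriptional co-activator held in check by the Hippo pathway, was overexpressed (OE). The question was what an active YAP that cannot bind its DNA-binding partners, the TEAD factors, does to CM gene expression.

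All groups were wild-type ICR mice that received 1e+11 viral genomes of AAV9 under the skin at 6 d of age and whose hearts were taken at 9 d. The cardiac troponin T promoter, which is active in CMs, drove each cassette, and nuclei were pulled down with an antibody to PCM1, a protein of the CM nuclear envelope. GFP was the control. YAP5SA carries serine-to-alanine changes at its LATS1/2 phosphorylation sites, which frees it from Hippo inhibition, and YAP6SA carries these and a further serine-to-alanine change that disrupts binding to TEAD. Each group had 2 hearts and 2 libraries, 1 in each of 2 labelled batches. That each library came from 1 heart is not stated, so the p-values measure the spread between libraries, which may be technical in part. The libraries held 14552847 to 19615627 gene counts. *Yap1* itself was not called different from GFP with either mutant (log2 fold change -0.09 for YAP6SA and -0.17 for YAP5SA, edgeR FDR 0.952 and 0.495), and whether reads of the viral cassette are counted there was not tested.

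DNA replication begins in G1, when the origin recognition complex, CDC6 and CDT1 load the ring-shaped MCM helicase on DNA in an inactive form. On entry to S phase, CDC45, GINS and MCM10 turn it into a moving helicase, primase and the polymerases copy the strands behind it, PCNA clamps the polymerases to DNA, and CAF-1 packs the new DNA into chromatin. Genes of this machinery are classic targets of the E2F transcription factors, and they are turned down as CMs leave the cell cycle in the days after birth.

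In YAP5SA OE CMs, most of the replication machinery was more abundant than in GFP CMs, and no member was lower past the threshold. Of the 48 genes, 47 passed the filter on low counts. The number higher than GFP was 34, against a background of 12.8% of the 13323 genes tested, and 0 were lower, against 9.18% (edgeR quasi-likelihood test, FDR under 0.05). By size, 29 of the 47 were at least 2-fold and 11 at least 4-fold higher, and the median log2 fold change was 1.25 (2.38-fold), where that of all genes was -0.0031. How many of all genes reached 2-fold or 4-fold was not counted. In 44 of the 47, both YAP5SA libraries lay above both GFP libraries, which held for 31.2% of all genes, in 0 both lay below, against 29.7%, and in the remaining 3 (*Rfc1*, *Pola2* and *Rpa3*) the groups overlapped. Without the GFP library of batch 2, 21 members were called, against 4.2% of all genes, and without any other library 28 to 37, against 8.25% to 19.4%. In bulk nuclei, more nuclei that express a gene and more RNA per nucleus cannot be told apart.

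In YAP6SA OE CMs no member passed the threshold. Of the 47 members, 0 were higher and 0 lower than GFP past the threshold, against a background of 0.045% and 0% of all genes (edgeR quasi-likelihood test), and none reached a 2-fold difference. In a fit of the 4 GFP and YAP6SA libraries alone, 1.49% of all genes were called higher and 0.585% lower, and again 0 members. Without the YAP5SA library of batch 1 or of batch 2, 1.13% or 1.17% of all genes were higher and 0.42% or 0.428% lower, with 0 members. The sum over the members was 918 CPM in batch 1 and 917 CPM in batch 2 for GFP (CPM, counts scaled to the size of the library). It was 925 and 1033 CPM in YAP6SA and 1597 and 2165 CPM in YAP5SA OE CMs. The YAP6SA libraries thus lay just above GFP, and the YAP5SA libraries far above both. Both comparisons use the same GFP libraries.

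**Figure D1:**
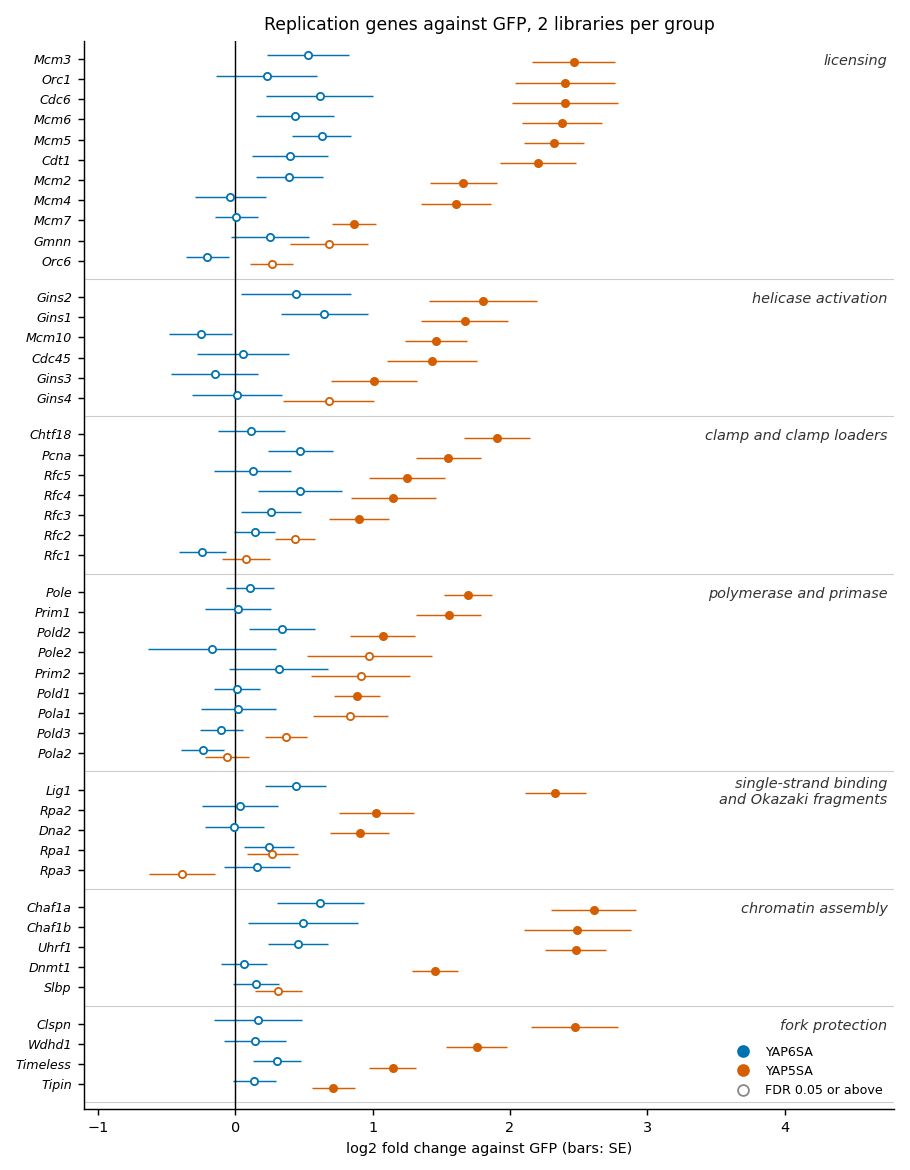
Log2 fold change against GFP (points) with its standard error (bars) of the 47 members tested, by subgroup, in YAP6SA (blue) and YAP5SA (orange) OE CMs. Filled points passed an FDR of 0.05: 34 in YAP5SA and 0 in YAP6SA.

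The promoters of the members were read for short motifs, since genes of this machinery moved together. RefSeq promoters on GRCm38.p6, from 250 bases before to 50 bases after a start, were matched to 39 of the 48 genes, and *Mcm4*, *Gmnn*, *Gins1*, *Gins2*, *Gins4*, *Rfc2*, *Prim2*, *Pole* and *Tipin* were not matched. Runs of letters that resemble E2F sites, namely TTGGCGC and its variant TTCCCGC as well as TTGCCGC and finally TTCGCGC, were searched on both strands, with overlapping matches counted separately. They occurred in 27 of the 39 members (69.2%), in 19.5% of all genes kept by the filter and in 10.9% of all genes with a promoter. At least 2 matches stood in 33.3% of the members, in 2.81% of genes kept and in 1.37% of all genes with a promoter. A stretch of 120 bases that ends at the start (for *Uhrf1* 16 bases before it, where an annotated exon begins) is shown for genes with and without a match, with E2F-type matches in capitals. *Mcm6*, a helicase subunit, and *Chaf1a*, the large subunit of CAF-1, had several matches and were called higher in YAP5SA OE CMs. *Uhrf1*, which guides maintenance methylation to new DNA, had 1 match and was also called. *Pola2*, a polymerase subunit, had no match anywhere in the 300 bases and did not pass the test. These genes do not stand for the whole list, since others went the other way. *Pcna* had no match and was called, and *Pola1*, with 4 matches, and *Rfc1*, with 2, were not called. The stretches lie at chr1:128359706-128359825 (minus strand), chr17:56040296-56040415 (plus), chr17:56303201-56303320 (plus) and chr19:5964207-5964326 (minus), outside annotated exons.
Mcm6: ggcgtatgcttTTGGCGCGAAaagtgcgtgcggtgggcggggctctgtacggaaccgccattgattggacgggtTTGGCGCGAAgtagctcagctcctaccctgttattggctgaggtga
Chaf1a: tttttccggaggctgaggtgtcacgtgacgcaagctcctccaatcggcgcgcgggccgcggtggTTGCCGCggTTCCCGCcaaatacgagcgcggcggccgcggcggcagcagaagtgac
Uhrf1: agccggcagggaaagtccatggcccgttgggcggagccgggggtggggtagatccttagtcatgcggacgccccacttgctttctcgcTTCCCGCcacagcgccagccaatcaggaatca
Pola2: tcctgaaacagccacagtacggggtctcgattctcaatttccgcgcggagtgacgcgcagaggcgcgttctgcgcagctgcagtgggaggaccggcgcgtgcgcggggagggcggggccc

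In *Mcm6*, each capital run holds 2 overlapping matches on opposite strands, which start 109, 106, 46 and 43 bases before the start site. In *Chaf1a* the matches start 56 and 47 bases before it, and in *Uhrf1*, whose printed stretch ends 16 bases short of the start site, 48 bases before it. The stretches hold the lesser part of the matches, since of the 52 matches in all promoters of the members 46.2% lay in the 50 bases after the start and 28.8% in the 120 bases before it, against 17.9% and 44.8% for all genes. Only 4 members had a match in the stretch of 120 bases taken for their gene. For some members, as for *Uhrf1*, that stretch ended before the start site, so matches nearer the start are not in this count. No stretch was taken for *Mcm7*, *Cdc6*, *Pcna* and *Timeless*, so these genes are not in the count either. Of the 29 members with a promoter that were called in YAP5SA OE CMs, 21 had E2F-type letters (72.4%), and of the 9 that were tested and not called 5 had them (55.6%), a difference that was not tested. The CCAAT box (CCAAT) stood in 64.1% of the members and 42.6% of all genes kept. GGAATG, the core of TEAD sites, stood in 12.8% of the members and 14.6% of the genes kept, and TTTGAA, the cell cycle homology region (CHR) of late cell cycle genes, in 15.4% and 14.1%. Each of these 2 stood in 5 of the 29 called members (17.2%) and in 0 of the 9 not called, differences that were not tested. Promoters of 22 of the 25 genes of a mitosis list, also called higher in YAP5SA OE CMs, differed, with E2F-type letters in 18.2% and the CHR in 77.3%. The members' promoters had a median GC content of 60.2%, close to the 60.7% of genes kept. A match is a run of letters and no evidence that a factor binds there.

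**Figure D2:**
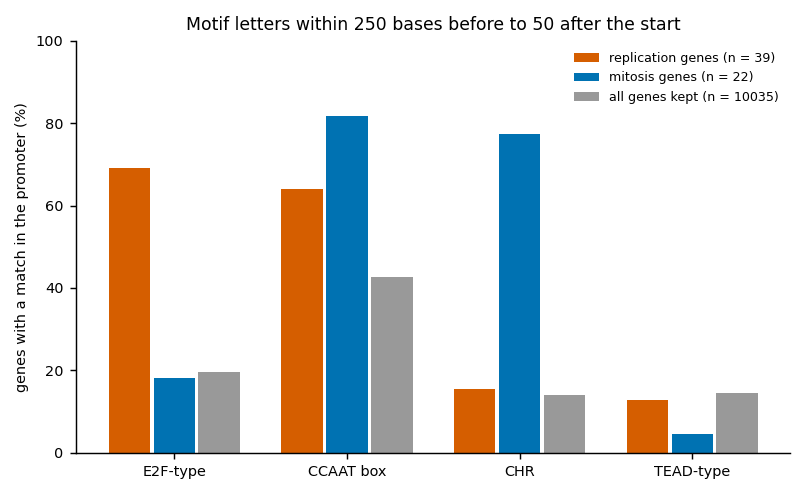
Share of genes (%) with each motif, on either strand, within 250 bases before to 50 bases after a RefSeq start, for the members (orange, 39 genes), the mitosis list (blue, 22) and all genes kept (grey). E2F-type letters stand in 69.2% of members and 19.5% of genes kept, and the CHR in 77.3% of the mitosis list.

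Of 11 licensing genes, 9 were called higher in YAP5SA OE CMs, with a median log2 fold change of 2.20 over the 11. For this and each later subgroup count, the background is the same 12.8% of all genes. All 6 subunits of the MCM helicase were among them, with log2 fold changes of 1.66 for *Mcm2*, 2.46 for *Mcm3*, 1.61 for *Mcm4*, 2.32 for *Mcm5*, 2.38 for *Mcm6* and 0.87 for *Mcm7*, whose call was lost without the batch term (edgeR FDR 0.0516). So were *Cdc6* (2.40), *Cdt1* (2.20), which load the helicase, and *Orc1* (2.40), the cell-cycle-regulated subunit of the origin recognition complex. *Mcm3* (chr1:20802968-20820312, minus strand) had 4.99 and 4.51 CPM in GFP (batch 1, then batch 2, here and throughout), 6.36 and 7.58 in YAP6SA and 19.3 and 35.4 in YAP5SA OE CMs. Its YAP5SA libraries were both above all others, and the rise was 5.52-fold (log2 standard error 0.30, edgeR FDR 0.000811). *Orc6* (chr8:85299632-85308278, plus strand), an origin recognition subunit and the most abundant licensing gene per kb of exon, had 78.2 and 70.3 CPM in GFP, 63.4 and 65.5 in YAP6SA and 81.4 and 97.4 in YAP5SA OE CMs. The YAP5SA libraries lay above the GFP libraries by little, with a log2 fold change of 0.26 (standard error 0.16, edgeR FDR 0.255). *Gmnn*, which encodes geminin, the inhibitor that stops CDT1 from licensing again, had a log2 fold change of 0.68 (standard error 0.28, edgeR FDR 0.111), so that a rise past the threshold was seen for CDT1 and not for its inhibitor. The difference between these genes was not tested.

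Genes that activate the helicase were called in 5 of 6 cases, with a median log2 fold change of 1.45. *Mcm10* (1.46), *Cdc45* (1.43) and *Gins1* (1.67) were each close to 3-fold higher. *Gins3* (1.01) was called nearest the threshold (edgeR FDR 0.0451), and in 7 of 9 alternative fits. *Gins2* (chr8:120578633-120589304, minus strand), a subunit of the GINS ring, had 3.10 and 1.96 CPM in GFP, 3.26 and 3.64 in YAP6SA and 8.21 and 9.47 in YAP5SA OE CMs. The YAP5SA libraries were above all others, at 3.49-fold over GFP (log2 standard error 0.39, edgeR FDR 0.0115). Of its exon bases, 67.3% are shared with *Gse1*, and reads that lie in exons of more than 1 gene were not counted, so the level of *Gins2* is a partial one. *Gins4* (chr8:23226616-23237659, minus strand), the subunit with the highest level per kb, had 10.4 and 7.25 CPM in GFP, 8.95 and 8.91 in YAP6SA and 10.5 and 18.2 in YAP5SA OE CMs. Here the YAP5SA library of batch 2 stood apart and that of batch 1 was level with GFP, and the log2 fold change of 0.68 (standard error 0.33) was not called (edgeR FDR 0.168).

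The sliding clamp and its loaders were called in 5 of 7 cases, with a median log2 fold change of 1.15. *Pcna*, the clamp, rose 2.93-fold (edgeR FDR 0.00231). *Chtf18* (chr17:25718926-25727419, minus strand), part of the loader that acts in sister chromatid cohesion, had 5.84 and 7.84 CPM in GFP, 5.90 and 9.09 in YAP6SA and 19.9 and 32.4 in YAP5SA OE CMs. It rose 3.75-fold (log2 standard error 0.24, edgeR FDR 0.000924), with no overlap between YAP5SA and the other groups. Of the RFC loader, the small subunits *Rfc3*, *Rfc4* and *Rfc5* were called (log2 fold change 0.90, 1.15 and 1.25) and *Rfc1* and *Rfc2* were not, and the difference between them was not tested. *Rfc1* (chr5:65261850-65335670, minus strand), the large subunit, had 34.0 and 37.9 CPM in GFP, 28.6 and 32.3 in YAP6SA and 38.8 and 37.0 in YAP5SA OE CMs, and the YAP5SA and GFP libraries overlapped (log2 fold change 0.08, standard error 0.17, edgeR FDR 0.781). *Rfc2* (chr5:134581366-134601805, plus strand), the most abundant of the clamp genes per kb, had 79.5 and 76.8 CPM in GFP, 79.6 and 93.0 in YAP6SA and 103 and 108 in YAP5SA OE CMs. The YAP5SA libraries of *Rfc2* were the highest, yet its log2 fold change of 0.43 (standard error 0.15) missed the threshold (edgeR FDR 0.0598).

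Polymerases and primase formed the subgroup with the lowest share of calls, 4 of 9, and a median log2 fold change of 0.91. The called genes were *Pole*, the catalytic subunit of the leading strand polymerase, *Prim1*, the catalytic primase subunit, and *Pold1* and *Pold2* of the lagging strand polymerase. *Pole* (chr5:110286306-110337474, plus strand) had 20.0 and 22.9 CPM in GFP, 21.1 and 25.1 in YAP6SA and 58.3 and 82.2 in YAP5SA OE CMs. Its rise was 3.24-fold (log2 standard error 0.18, edgeR FDR 0.000409) and its YAP5SA libraries lay far above the rest. *Pola2* (chr19:5940542-5964202, minus strand), the B subunit of polymerase alpha, had 61.4 and 60.3 CPM in GFP, 49.9 and 53.3 in YAP6SA and 51.5 and 66.0 in YAP5SA OE CMs. The YAP5SA libraries of *Pola2* fell on both sides of the GFP libraries (log2 fold change -0.06, standard error 0.16, edgeR FDR 0.827). *Pold3* (chr7:100082111-100121565, minus strand), an accessory subunit and the most abundant polymerase gene per kb, had 52.3 and 63.9 CPM in GFP, 51.4 and 56.4 in YAP6SA and 75.6 and 73.8 in YAP5SA OE CMs. The difference from GFP was 0.37 on the log2 scale (standard error 0.15, edgeR FDR 0.113), without overlap between YAP5SA and GFP. *Pola1*, *Prim2* and *Pole2* had log2 fold changes of 0.84, 0.91 and 0.97 and were not called (edgeR FDR 0.0534, 0.0983 and 0.153). Of these, *Pola1* passed the threshold in 3 of 9 alternative fits.

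Among the genes for single-strand binding and Okazaki fragments, 3 of the 5 tested were called, with a median log2 fold change of 0.91. They were *Lig1*, the ligase that seals Okazaki fragments, *Dna2*, a nuclease that trims them (0.91), and *Rpa2* (1.03). *Lig1* (chr7:13277283-13311433, plus strand) had 12.0 and 14.0 CPM in GFP, 18.5 and 16.4 in YAP6SA and 52.1 and 80.1 in YAP5SA OE CMs. It was 5.03-fold higher than GFP (log2 standard error 0.22, edgeR FDR 0.000266), and its YAP6SA libraries lay between those of GFP and YAP5SA. Of the RPA trimer, which coats single-stranded DNA, *Rpa1* (0.27) and *Rpa3* were not called, and the difference between the subunits was not tested. The call of *Rpa2* was lost without the batch term (edgeR FDR 0.0699) and held in 3 of the 6 fits that leave out a library. *Rpa3* (chr6:8255936-8259173, minus strand), the smallest RPA subunit and the most abundant gene of the subgroup per kb, had 29.6 and 22.1 CPM in GFP, 24.5 and 32.6 in YAP6SA and 22.2 and 17.3 in YAP5SA OE CMs. A log2 fold change of -0.39 (standard error 0.24) was the lowest of all members and was not called (edgeR FDR 0.280). *Fen1* (chr19:10199132-10204169, minus strand), the flap endonuclease, did not pass the filter, with 0 and 0 counts in GFP, 2 and 0 in YAP6SA and 0 and 3 in YAP5SA libraries. Its counts cannot be read as its expression, since 84.2% of its exon bases are shared with *Tmem258* and the predicted gene *Gm10143*.

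Chromatin assembly genes had the highest median of the subgroups, with a log2 fold change of 2.48 and 4 of 5 called. *Chaf1a* (2.61), *Chaf1b* (2.49) and *Uhrf1* (2.48) rose by similar amounts. *Chaf1a* (chr17:56040439-56072289, plus strand) had 2.52 and 4.05 CPM in GFP, 4.78 and 4.97 in YAP6SA and 14.8 and 25.7 in YAP5SA OE CMs. At 6.10-fold over GFP (log2 standard error 0.31, edgeR FDR 0.000747) it was the member that rose most, from a low level, and 52.5% of its exon bases are shared with *Ubxn6*. *Dnmt1* (chr9:20907209-20959888, minus strand), the maintenance DNA methyltransferase and the most abundant of these genes per kb, had 44.5 and 51.5 CPM in GFP, 46.1 and 54.1 in YAP6SA and 103 and 165 in YAP5SA OE CMs. It rose 2.74-fold (log2 standard error 0.17, edgeR FDR 0.000677), with YAP6SA libraries close to those of GFP. *Slbp* (chr5:33634952-33652574, minus strand), which binds the stem loop of histone mRNA, had 34.6 and 30.1 CPM in GFP, 36.9 and 34.7 in YAP6SA and 44.0 and 36.5 in YAP5SA OE CMs. Its libraries of the 3 groups lay close together (log2 fold change 0.31, standard error 0.17, edgeR FDR 0.214).

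Fork protection was the subgroup in which all members, 4 of 4, were called in YAP5SA OE CMs, with a median log2 fold change of 1.45. *Clspn* (chr4:126556935-126593903, plus strand), which encodes claspin, the mediator of the replication checkpoint, had 3.36 and 3.33 CPM in GFP, 3.97 and 3.52 in YAP6SA and 15.3 and 22.3 in YAP5SA OE CMs. The YAP6SA libraries lay above the GFP libraries by little, and the YAP5SA libraries were 5.55-fold higher than GFP (log2 standard error 0.32, edgeR FDR 0.000998). *Wdhd1*, which links the helicase to polymerase alpha, and *Timeless*, which steadies the fork, had log2 fold changes of 1.76 and 1.14. *Tipin* (chr9:64281581-64305424, plus strand), the partner of TIMELESS, had the highest level per kb of all members in GFP. It had 66.1 and 56.9 CPM in GFP, 69.2 and 66.0 in YAP6SA and 94.6 and 107 in YAP5SA OE CMs, a rise of 1.64-fold (log2 standard error 0.16, edgeR FDR 0.0115).

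**Figure D3:**
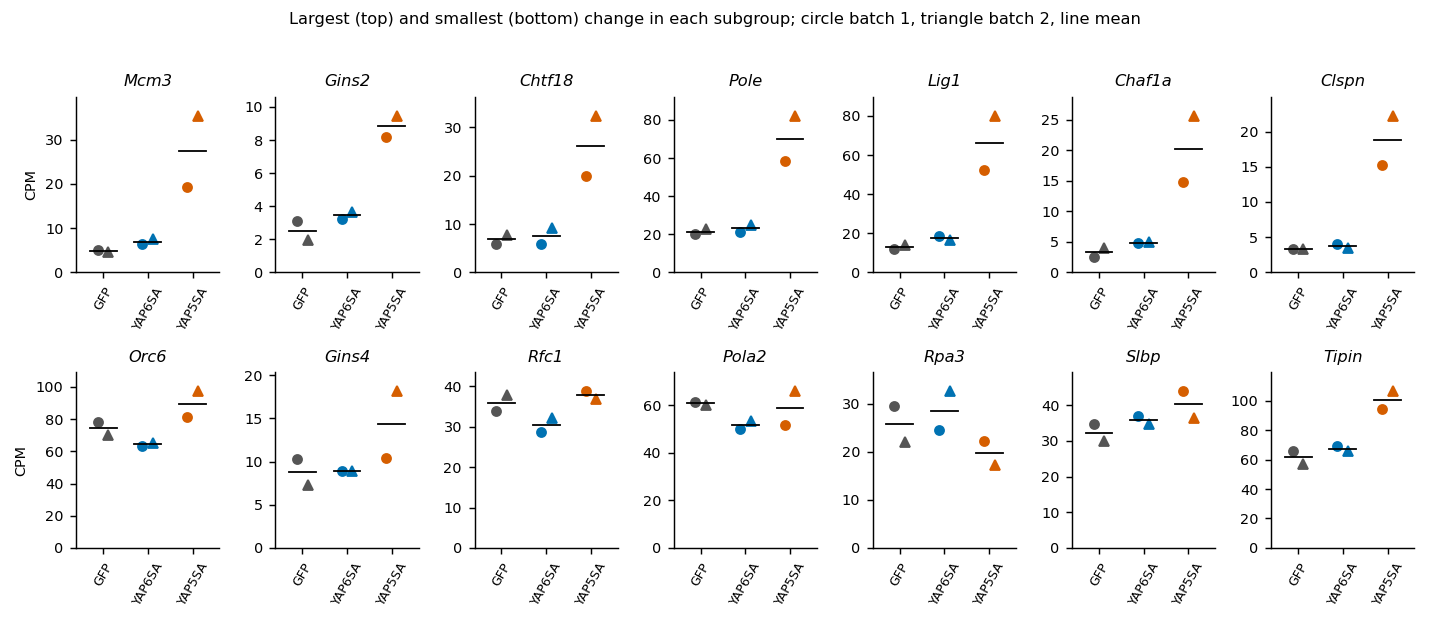
CPM in each library (circles batch 1, triangles batch 2, lines the mean of 2 libraries) of the member with the largest (top) and smallest (bottom) log2 fold change of YAP5SA against GFP in each subgroup. In the top row the YAP5SA libraries lie above all others. In the bottom row *Tipin* alone passed the test, and *Rpa3* was at 22.2 and 17.3 CPM in YAP5SA and 29.6 and 22.1 in GFP.

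The members with low levels per kb of exon were in general those with large changes. In GFP, the level per kb of exon ran from 0.371 CPM per kb for *Chaf1a* to 32.9 for *Tipin*, leaving out *Fen1*. Per kb of exon not shared with another gene, *Chaf1a* was at 0.781 and *Clspn*, at 0.466 CPM per kb, was the lowest. Of the 16 members with the lowest mean level per kb over all libraries, 13 were called and their median log2 fold change against GFP was 1.71. For the 15 members in the middle these were 11 and 1.03, and for the 16 with the highest level 10 and 0.87. The mean used for this ranking includes the YAP5SA and GFP libraries that are compared. Across the 47 members, the level per kb in YAP6SA, whose libraries are not in the comparison of YAP5SA with GFP, ran against the log2 fold change of that comparison (Spearman's rho -0.657, and -0.641 per kb of unshared exon), and across all genes the value was -0.218. These points share libraries, depth and gene length, and the value is a description. *Uhrf1*, *Lig1* and *Dnmt1* were at middle or high levels and still rose.

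**Figure D4:**
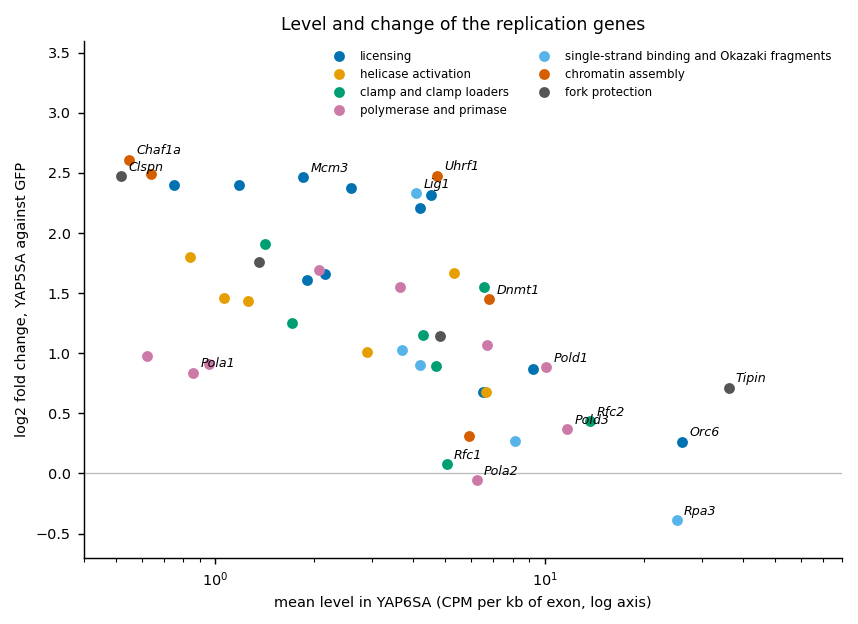
Mean level in YAP6SA (CPM per kb of exon, log axis) against the log2 fold change of YAP5SA against GFP for the 47 members, coloured by subgroup. Members at low levels sit higher, with *Rpa3*, *Orc6* and *Tipin* at the right between -0.39 and 0.71.

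Subunit levels within a complex were compared for listed members only, which leaves out *Pold4*, *Pole3* and *Pole4*, so the counts of complexes hold for the listed subunits. The ratio of the highest to the lowest level per kb was smaller in YAP5SA than in GFP CMs for 7 of 8 complexes. Per kb of exon that no other gene shares, the ratio was smaller for 6 of 8. In YAP6SA OE CMs, where no member was called, it was also smaller than in GFP for 5 and 4 of the 8. Among the 6 MCM subunits, levels ran from 1.27 to 9.06 CPM per kb in GFP, a ratio of 7.16, and from 5.15 to 16.8 in YAP5SA OE CMs, a ratio of 3.26, with 4.96 in YAP6SA. For the 4 GINS subunits, of which *Gins2*, the lowest, is counted in part, the ratio was 10.6 in GFP, 7.87 in YAP6SA and 5.10 in YAP5SA, and per kb of unshared exon it was 3.45 in GFP and 1.67 in YAP5SA. Polymerase alpha with primase had 9.43, 7.23 and 6.98 in GFP, YAP6SA and YAP5SA, so that its YAP6SA ratio was closer to YAP5SA than to GFP. The 3 listed subunits of polymerase delta had 2.34, 1.75 and 1.64 in the same order. *Pold4*, left out, had 12.4, 13.9 and 13.7 CPM per kb. In YAP6SA alone this was above the highest of the 3 listed subunits (11.7), so the YAP6SA ratio holds for those subunits only. The 5 RFC subunits had 7.78, 8.004 and 4.30 and the 3 RPA subunits 6.13, 6.78 and 2.21, with the YAP6SA ratio above that of GFP. The 2 listed subunits of polymerase epsilon, *Pole* and *Pole2*, became more unequal, from 2.73 in GFP to 3.32 in YAP6SA and 4.64 in YAP5SA. *Pole4*, left out, had 9.60, 10.7 and 14.8 CPM per kb in the same order, above *Pole* (1.92, 2.07 and 6.30). These ratios therefore do not give the direction for the whole polymerase. For CAF-1 the direction rested on the length used, since the ratio of *Chaf1a* and *Chaf1b* went from 1.28 in GFP to 1.16 in YAP5SA per kb of exon and from 1.65 to 1.81 per kb of unshared exon. The ratios use the same genes and libraries as the relation of level and change above, so they are not independent of it. No test was made of these ratios.

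In YAP6SA OE CMs the log2 fold changes against GFP ran from -0.25 (*Mcm10*) to 0.65 (*Gins1*), with a median of 0.15, where that of all genes was 0.0018. Values above 0 were found for 38 of the 47 members and for 50.3% of all genes, and differences above 0 in both batches for 26 members and 29.4% of all genes. Both YAP6SA libraries lay above both GFP libraries in 19 members and below in 5, against 17.3% and 17% of all genes, and 23 overlapped. At an unadjusted p under 0.05 there was 1 member, *Mcm5*, a helicase subunit, against 3.86% of all genes, and 0 were lower, against 2.07%. *Mcm5* had 11.1 and 12.1 CPM in GFP, 16.4 and 19.8 in YAP6SA and 44.2 and 75.1 in YAP5SA OE CMs. Its YAP6SA libraries stood above GFP and below YAP5SA, with a log2 fold change against GFP of 0.63 (standard error 0.21, edgeR FDR 0.701). By subgroup the medians were highest for chromatin assembly (0.46) and licensing (0.39) and between 0.02 and 0.16 for the others. The median over the members rested on the control libraries, since it was 0.28 without the GFP library of batch 1 and 0.045 without that of batch 2, and 0 members were called in either case. A difference that misses the threshold does not show that the genes are at the GFP level.

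Set against each other, YAP5SA exceeded YAP6SA OE CMs in 30 members and was lower in 0, against a background of 9% and 5.68% of all genes (edgeR quasi-likelihood test). This test does not use GFP for the difference, although GFP libraries enter the estimate of the spread. The median log2 fold change was 1.13, and 26 members were at least 2-fold higher, a size that was not counted over all genes. YAP5SA libraries lay above YAP6SA libraries in 43 members, below in 1 (*Rpa3*) and overlapped in 3, where 28.6% and 28.9% of all genes lay above and below. *Clspn* (2.31), *Orc1* (2.17) and *Uhrf1* (2.02) had the largest differences. The 13 members that were not called against GFP were not called here either, *Orc6*, *Rfc1*, *Pola2* and *Slbp* among them. *Rfc3*, *Rfc4*, *Pold2* and *Gins1* were called against GFP and not against YAP6SA, with log2 fold changes between YAP5SA and YAP6SA of 0.64, 0.68, 0.73 and 1.02 (edgeR FDR 0.0779, 0.157, 0.0642 and 0.0507). The count was 19 without the YAP6SA library of batch 1 and 14 without that of batch 2, where 6.27% and 2.46% of all genes were called higher. Without the YAP5SA library of batch 1, *Rpa3* was called lower.

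The size of the rise in YAP5SA OE CMs differed between the batches. Against the GFP library of its own batch, the median log2 difference of the members was 1.13 in batch 1 and 1.51 in batch 2, and it was larger in batch 2 for 42 of the 47 members (89.4%, against 51.5% of all genes). *Orc1* had 1.70 in batch 1 and 3.01 in batch 2, *Gins4* 0.02 and 1.31, and *Chaf1b* 2.51 and 2.37. Between the YAP5SA libraries themselves, 43 of 47 members were higher in batch 2, with a median log2 difference of 0.50, against 51.5% of all genes. Between the YAP6SA libraries 32 of 47 were higher in batch 2 (median 0.09), against 49.9% of all genes, and between the GFP libraries 22 of 47 (median -0.03), against 48.8%. For YAP6SA the medians against GFP were 0.07 and 0.21. The direction in YAP5SA held in both batches, with positive differences in 44 of 47 members, against 37.6% of all genes.

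**Figure D5:**
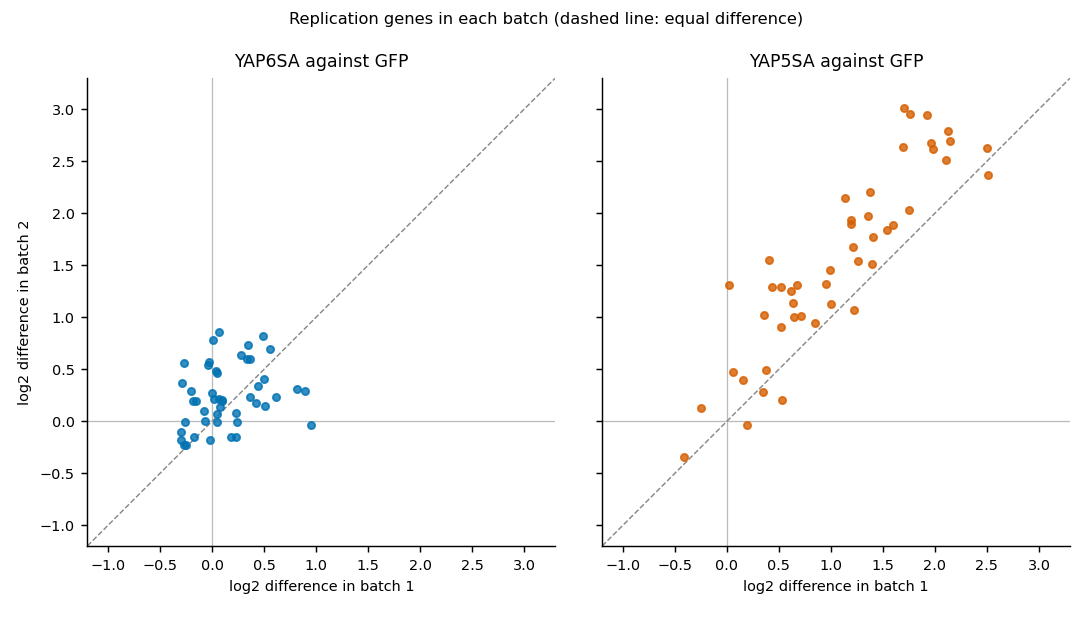
Log2 difference from the GFP library of the same batch for the 47 members, batch 1 on the x axis and batch 2 on the y axis, in YAP6SA (left) and YAP5SA (right). In YAP5SA 42 of 47 points lie above the dashed line of equal differences, and in YAP6SA 32 of 47.

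Genes around the core machinery were higher in YAP5SA OE CMs in part. Of 30 other replication genes, 12 were called higher and 0 lower, with a median log2 fold change of 0.49, where 12.8% of all genes were higher and 9.18% lower. The largest values were those of *Dscc1* (2.70), a partner of CHTF18, and *Asf1b* (2.52), a histone chaperone that feeds CAF-1, and the lowest those of *Rnaseh2a* (-0.52) and *Orc5* (-0.38), which were not called. *Dscc1* had 2.26 and 0.784 CPM in GFP, 3.10 and 2.42 in YAP6SA and 7.95 and 11.1 in YAP5SA OE CMs. Of 9 genes that supply nucleotides, 4 were called higher, against the same 12.8% of all genes. *Rrm2* (2.72) and *Rrm1* (1.86) encode the subunits of ribonucleotide reductase, which makes deoxynucleotides. *Rrm2* had 7.20 and 4.44 CPM in GFP, 8.04 and 7.52 in YAP6SA and 28.7 and 48.8 in YAP5SA OE CMs. *Dut* (0.14) and *Dck* (0.16), which remove dUTP and salvage deoxycytidine, had the lowest values and were not called.

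Among 15 genes of the E2F family and of G1/S control, 7 were called higher in YAP5SA OE CMs, against 12.8% of all genes. *E2f1* (2.81) and *E2f7* (2.21), an activator and a repressor of the E2F family, had the largest log2 fold changes, and *Cdkn1b* (-0.17) and *E2f6* (-0.13) the lowest, without a call. *E2f1* had 3.89 and 3.20 CPM in GFP, 4.83 and 3.94 in YAP6SA and 20.9 and 29.0 in YAP5SA OE CMs, with no overlap (edgeR FDR 0.000524). A list of 25 mitosis genes was called in full, 25 of 25 against 12.8% of all genes, with a median log2 fold change of 1.82. *Ect2* (2.85), needed for cytokinesis, had 27.5 and 21.03 CPM in GFP, 29.3 and 31.2 in YAP6SA and 152 and 200 in YAP5SA OE CMs. *Top2a* followed with 2.15, and *Cenpf* (0.85) and *Plk1* (0.92) were the lowest. In YAP6SA OE CMs 0 genes of these 4 lists were called, where 0.045% of all genes were called higher and 0% lower, and their medians lay between 0.08 and 0.14.

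Markers of the CM and of other heart cells were read in the same libraries. The 10 CM markers summed to 51421 and 68636 CPM in GFP, 49906 and 63733 in YAP6SA and 43650 and 32054 in YAP5SA OE CMs, in each library the highest sum of all marker lists. In YAP5SA OE CMs 2 of the 10, *Ryr2* and *Pln*, were called lower, against 9.18% of all genes. Both YAP5SA libraries lay below both GFP libraries in 7 of the 10, against 29.7% of all genes, and the median log2 fold change was -0.61. *Myh6*, the most abundant, had 17905 and 28041 CPM in GFP, 16426 and 21965 in YAP6SA and 13091 and 8669 in YAP5SA OE CMs (log2 fold change -1.04, edgeR FDR 0.0625).

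Fibroblast markers (8 genes, most abundant *Col3a1*) summed to 1367 and 860 CPM in GFP, 1777 and 984 in YAP6SA and 1496 and 906 in YAP5SA OE CMs. Endothelial markers (8, *Egfl7*) summed to 612 and 479, 712 and 492, and 631 and 494 CPM in the same order. Both sums were higher in batch 1 in every group. Of these lists 0 genes were called, where in YAP5SA against GFP 12.8% of all genes were higher and 9.18% lower. In YAP6SA against GFP, 8 of 8 fibroblast markers had a log2 fold change above 0 (median 0.32) and 3 were higher at an unadjusted p under 0.05 (edgeR), against 3.86% of all genes, and 0 endothelial markers were. Macrophage markers (8, *Csf1r*) summed to 65.9 and 94.1 CPM in GFP, 81.6 and 110 in YAP6SA and 95.5 and 141 in YAP5SA OE CMs, and of 7 tested *C1qa* and *Lyz2* were called higher in YAP5SA against GFP, against 12.8% of all genes. Mural markers (6, *Cspg4*) summed to 231 and 175, 256 and 207, and 225 and 188 CPM. Of these 6, *Myh11* alone was called higher in YAP5SA against GFP, where 12.8% of all genes were. Erythroid markers (6, *Hbb-bs*) summed to 48.7 and 59.5, 64.0 and 24.8, and 46.8 and 31.7 CPM. The last 2 sums overlapped between the groups.

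Of 4 epicardial markers, *Wt1*, the most abundant, was called higher in YAP5SA OE CMs (log2 fold change 3.17, edgeR FDR 0.000232). The other 3 were not called, where 12.8% of all genes were called higher. *Wt1* had 13.8 and 13.6 CPM in GFP, 23.6 and 14.6 in YAP6SA and 92.9 and 155 in YAP5SA OE CMs. It made up most of the sum of the list in YAP5SA OE CMs, which was 38.7 and 30.2 CPM in GFP, 54.0 and 30.4 in YAP6SA and 121.0 and 176 in YAP5SA. The median log2 fold change of the list was 0.46, and *Upk3b*, a mesothelial marker, had 5.63 and 4.64 CPM in GFP and 9.14 and 7.73 in YAP5SA OE CMs (edgeR FDR 0.174). Mitochondrial genome mRNA moved as well, at 11997 and 12413 CPM in GFP, 18169 and 23627 in YAP6SA and 19767 and 27062 in YAP5SA OE CMs. Of its 10 genes tested, 10 were called higher in YAP5SA OE CMs, against 12.8% of all genes. In YAP6SA OE CMs 0 were called, against 0.045%, and 10 were higher at an unadjusted p under 0.05 (edgeR), against 3.86%. None of the markers was at 0 in all libraries. The part of other cell types and of mitochondrial RNA in the rise of the replication genes was not tested.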

How the data were processed

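Reads of non-directional poly-A libraries were mapped by the authors with STAR to mm10 with an Ensembl GRCm38 annotation, and raw read counts per gene were deposited, with reads in several genes (ambiguous) set apart. The versions of STAR and edgeR that the authors used are not given in the sources used here. Of 54532 genes, 54495 were named in GENCODE M21 and 27396 had a count. Depth was 14552847 to 19615627 gene counts a library, so a count of 0 allows up to 3 counts (counting error only). No library was a copy: chi-square per degree of freedom between replicates was 25.3 to 39.6.

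Genes with a median log2 CPM over 1 in at least 1 group were kept (13323). With edgeR 4.0.16 under R 4.3.3, quasi-likelihood tests on TMM-scaled counts were made in 1 model of all 6 libraries with group and batch terms, as the study's methods state for the filter, tool and covariate. P-values were adjusted by Benjamini-Hochberg (FDR) over all genes kept, with a threshold of 0.05. Differences within a batch are of log2 CPM with a prior count of 2. The batch label pairs the libraries, whose deviations correlated at 0.368 (GFP and YAP6SA), 0.0985 (GFP and YAP5SA) and 0.175. CPM use the scaled library size, and levels per kb divide by the union of exons. The pipeline was tested on simulated data. Of 100 genes changed 4-fold in YAP5SA against GFP 94 were recovered, and of 100 changed 2-fold 55 were, with 7 false calls. Alternatives were 2 scalings, 2 filters, the likelihood ratio test, DESeq2 1.42.0, limma-voom (limma 3.58.1), no block, 4 libraries only, thresholds of 0.01 and 0.1, and each library left out.

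Library values are given for the members with the highest and lowest log2 fold change of YAP5SA against GFP and the highest level per kb in each subgroup and for members not kept. Of 4 other lists the 2 highest and 2 lowest genes are named, with library values for the highest, and of each marker list the most abundant gene, with library values for *Myh6* and *Wt1*. The members and lists were chosen with earlier results of these data known. Further genes named were chosen after their values were seen. Promoters are from RefSeq (GRCm38.p6).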

Additional observations from a re-analysis of the deposited data

How the results depend on the processing

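Scaling, filters, tests, the fit of 4 libraries and thresholds of 0.01 and 0.1 kept every count of members within 1.5 times its value, with 24 to 37 members higher in YAP5SA against GFP (6.03% to 17.1% of all genes) and 20 to 36 in YAP5SA against YAP6SA (4.03% to 12.7%), and 0 in YAP6SA against GFP (0.015% to 1.49%). Without the replicate block, these counts were 31, 24 and 0 (9.99%, 6.39% and 0% of all genes). In YAP5SA against GFP, 31 members were called in all 9 alternative fits, and 21 in each of the 6 fits without a library. Leaving out each library gave 21 to 37 members higher in YAP5SA against GFP (4.2% to 19.4% of all genes), 14 to 36 higher (2.46% to 16.6%) and 0 to 1 lower in YAP5SA against YAP6SA, and medians in YAP6SA against GFP of 0.045 to 0.28, with 0 members called. No called value changed direction, but without a library the log2 fold change took both signs in 2 of 47 members in YAP5SA against GFP (*Pola2*, -0.21 to 0.11, and *Rfc1*, -0.03 to 0.21), 1 in YAP5SA against YAP6SA and 19 in YAP6SA against GFP, none of them called. Of 1088 values of single called members, 92 fell short of the threshold, 62 of them without a library. A library left out leaves 1 residual degree of freedom, and its lone partner is assumed to vary like the other groups. The cause of these changes was not tested beyond the smaller number of libraries. Genes at the floor of 3 counts, such as *Fen1*, and differences below 2-fold in genes of low count are limited by depth and by 2 libraries a group. Levels per kb of unshared exon were added after seeing the data. With groups of 2, no sample could be tested as an outlier.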
